A study of Mus musculus with 10 samples.

Results

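Brain endothelial genes were represented by 10 genes, namely Slc2a1, Cldn5, Flt1, Kdr, Tek, Pecam1, Abcb1a, Klf2, Klf4 and Slco1a4, out of 47729 genes in the count table. They were chosen by name as genes of the vessel wall and the blood-brain barrier, and each was matched to 1 Ensembl gene. RNA was sequenced from CF1 mice aged 56 days (postnatal day 56) after a perinatal low-protein diet (LP) or a perinatal normal-protein diet (NP). There were 10 libraries, 5 LP and 5 NP: male and female prefrontal cortex, male and female hippocampus, and male hypothalamus, with 1 library for each region, sex and diet. In both groups the parents received NP before mating, their group's own diet at mating, and the dams kept it through pregnancy and lactation, while the offspring were weaned at 21 days to NP in both groups and stayed on it for 5 weeks. The offspring were thus not on LP when sampled. The labels do not say whether a library came from 1 animal or a pool, nor whether regions came from the same animals. The p-values below therefore describe the spread between these libraries, and sharing of animals between regions was not modelled.

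Endothelial cells of brain capillaries are sealed by tight junctions, form few vesicles and carry transporters that admit nutrients and expel drugs and bile salts, which together make up the blood-brain barrier. Vascular endothelial growth factors and angiopoietins bind receptor tyrosine kinases on these cells and control vessel growth and stability, and the Krüppel-like factors KLF2 and KLF4 are induced by blood flow and keep the endothelium quiescent. Endothelial cells are a small part of brain tissue, and in bulk libraries fewer cells of a type and less RNA per cell cannot be told apart. KLF2, KLF4, GLUT1 (Slc2a1) and others of the 10 are also made by other cells.

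Total counts ranged from 10256882 to 16265481 in 9 libraries. The female NP hippocampus library held 7871010 counts and lacked part of the genome, whose genes carried 33.8% of the counts in the other libraries. Flt1, Kdr, Abcb1a, Klf2 and Slco1a4 were not measured in that library, so the female hippocampus pair gave values for Slc2a1, Cldn5, Tek, Pecam1 and Klf4. Levels are given as scaled CPM, in which library sizes were taken over the genes measured in all libraries. The regional labels were checked against known markers: Prox1, of dentate granule cells, averaged 171.6 ± 11.3 CPM in hippocampus and 16.7 ± 3.08 CPM in prefrontal cortex (SD, n = 4 libraries each). Hcrt, the orexin precursor of the lateral hypothalamus, was at 26.4 and 125.6 CPM in the hypothalamic libraries and at no more than 0.752 CPM elsewhere.

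The proximal promoters of Slc2a1, Klf4 and Klf2 are shown because Slc2a1 and Klf4 passed the diet test, and because Klf2 and Klf4 were the members that varied most between libraries. Each line gives 220 bases on the gene's strand, 5′ to 3′, from 250 to 31 bases before the RefSeq start (RefSeq, GRCm38.p6). The Slc2a1 window is chr4:119108495-119108714 on the plus strand, the Klf4 window chr4:55532506-55532725 on the minus strand, and the Klf2 window chr8:72318812-72319031 on the plus strand. Capitals mark every match to 11 motifs, searched on both strands.
Slc2a1: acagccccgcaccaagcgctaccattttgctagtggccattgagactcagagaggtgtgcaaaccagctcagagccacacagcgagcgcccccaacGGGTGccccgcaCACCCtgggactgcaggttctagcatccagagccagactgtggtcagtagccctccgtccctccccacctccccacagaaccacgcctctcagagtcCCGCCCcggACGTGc
Klf4: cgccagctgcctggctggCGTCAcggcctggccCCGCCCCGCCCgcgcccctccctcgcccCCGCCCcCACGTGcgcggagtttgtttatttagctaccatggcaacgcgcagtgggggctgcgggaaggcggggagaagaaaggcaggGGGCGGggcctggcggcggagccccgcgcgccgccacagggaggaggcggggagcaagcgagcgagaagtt
Klf2: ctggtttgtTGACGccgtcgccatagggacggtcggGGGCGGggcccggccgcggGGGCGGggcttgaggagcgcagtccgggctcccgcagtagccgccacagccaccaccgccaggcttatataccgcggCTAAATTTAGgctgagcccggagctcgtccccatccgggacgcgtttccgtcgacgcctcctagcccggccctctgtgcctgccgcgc
The motifs were the cyclic AMP response element (CRE, TGACGTCA, in 1.56% of 32526 RefSeq promoters), its core TGACG, which lies inside the CRE (17.9%), the GC box GGGCGG (33%), the CACCC box CACCC bound by Krüppel-like factors (52.1%), the ETS motif CCGGAA (12.1%), the hypoxia response core ACGTG (16.7%), the heat shock element GAANNTTC (6.72%), the CCAAT box CCAAT (33.8%), TATAAA (12.3%), and the SRF CArG (1.48%) and MEF2 (2.89%) motifs by name. All shares are of windows of 250 bases. The Klf2 window held 1 match to the MEF2 motif (CTAAATTTAG), 2 GC boxes and 1 TGACG core. Klf4 held 4 GC boxes, 1 TGACG core on the minus strand and the hypoxia core on both strands of 1 palindrome. Slc2a1 held 1 GC box, the hypoxia core and CACCC boxes on both strands. Over 250 bases all 3 were rich in G and C, at 66.4% in Slc2a1, 74% in Klf4 and 71.2% in Klf2, against a median of 52.4% over all promoters. A match of letters is a description and not evidence of binding. RefSeq promoters were found for 9 of the 10 members. Flt1 was the member with a full CRE.

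Per length, the glucose transporter gene led in every region. Slc2a1 averaged 74.3 ± 14.3 CPM per kilobase of exon in prefrontal cortex and the claudin gene Cldn5 averaged 30.8 ± 7.6 (SD, n = 4 libraries of both sexes and diets), a gap larger than either spread. Klf2 (12.2 ± 5.33), Klf4 (9.19 ± 3.07), Flt1 (7.97 ± 1.07) and Slco1a4 (7.58 ± 1.18 CPM per kilobase) followed and lay within their spread of each other. Abcb1a (5.21 ± 0.589) and Pecam1 (4.74 ± 0.368) could not be separated by their spread, nor could Tek (3.7 ± 0.849) and Kdr (2.97 ± 0.369 CPM per kilobase). In hippocampus Slc2a1 (48.1 ± 8.95) and Cldn5 (23.4 ± 0.288) again led, and Klf4 was at 3.54 ± 0.768 CPM per kilobase, below Abcb1a at 5.44 ± 0.557.

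**Figure D1:**
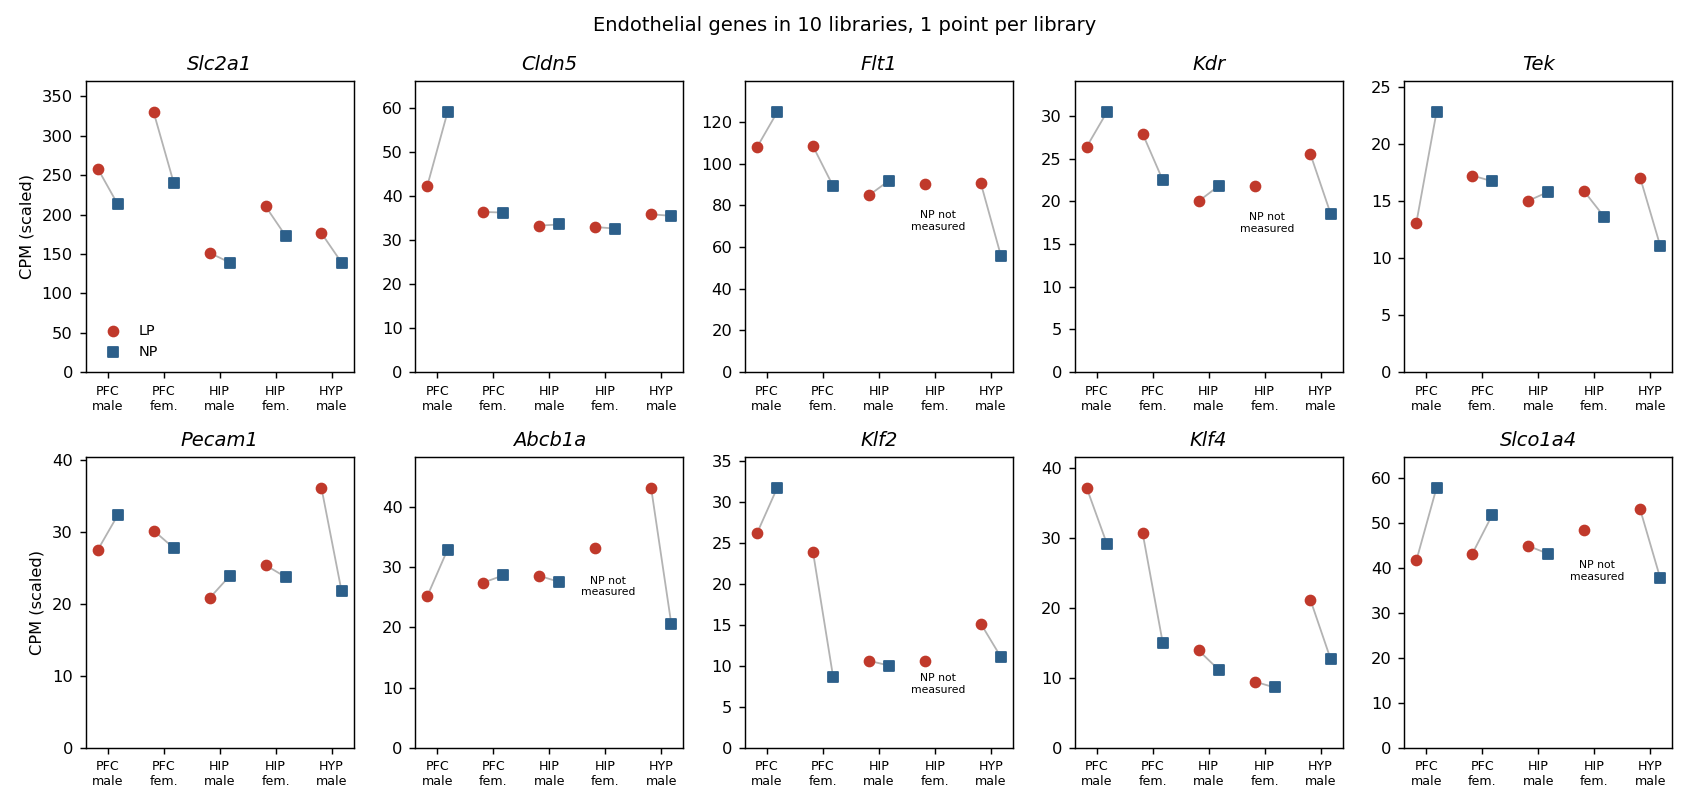
Scaled CPM of the 10 genes in each library, with LP (circles) beside NP (squares) for each region and sex; each point is 1 library and each panel has its own axis from 0. Slc2a1 is above its NP partner in all 5 pairs, while Tek and Slco1a4 are below it in the male prefrontal pair and above it in the hypothalamic pair.

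The first question was whether perinatal LP left a difference in these genes at day 56. Of the 10 members, Slc2a1 and Klf4 rose in LP and 8 did not pass the test, over the 5 LP and NP pairs. The background was 0.954% of 17408 tested genes called higher and 1.41% called in either direction. The median log2 fold change of the 10 was 0.15, with 8 of 10 positive, against a median of -0.00 over all genes. A further list of 25 endothelial identity genes, among them Cdh5, Egfl7 and Ly6c1, had 0 called by edgeR and by DESeq2, 5 at an unadjusted p under 0.05 and 21 positive (median 0.17).

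Slc2a1 (ENSMUSG00000028645; chromosome 4, 119108711 to 119137983, plus strand, GRCm38), whose promoter is printed above, encodes GLUT1, which carries glucose across the barrier. In prefrontal cortex it had 258.5 CPM in the male LP library and 330.0 CPM in the female LP library, against 212.8 CPM in male NP and 240.1 CPM in female NP. In hippocampus it had 151.4 and 210.6 CPM in male and female LP, against 139.1 and 172.9 CPM in male and female NP, and in hypothalamus 176.3 CPM in LP against 139.0 CPM in NP. LP was thus higher in 5 of 5 pairs, although the LP and NP ranges overlapped across regions. The fitted difference was 1.23-fold (log2 0.30 ± 0.05 SE, adjusted p = 0.00812 by edgeR's quasi-likelihood test with Benjamini-Hochberg adjustment). The log2 ratios of the single pairs were 0.28 and 0.46 in male and female prefrontal cortex, 0.12 and 0.28 in male and female hippocampus, and 0.34 in hypothalamus. The 95% counting interval lay above 0 in all 5 pairs, as it did for 0.449% of 10920 genes. Counting intervals cover counting error only, not the differences between animals. Without the female prefrontal pair the log2 fold change was 0.26 and the adjusted p was 0.0589. An antisense gene, Gm12868, overlaps 105 bases of the Slc2a1 exons and had 1 to 15 counts, against 1110 to 2254 for Slc2a1.

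Klf4 (ENSMUSG00000003032; chromosome 4, 55527143 to 55532466, minus strand) encodes a zinc finger transcription factor of quiescent endothelium that other cells also induce. It had 37.2 CPM in male LP and 30.7 CPM in female LP prefrontal cortex, against 29.2 CPM in male NP and 14.98 CPM in female NP. Hippocampus had 13.9 and 9.47 CPM in male and female LP, against 11.2 and 8.62 CPM in male and female NP, and hypothalamus had 21.1 CPM in LP against 12.7 CPM in NP. LP was higher in 5 of 5 pairs, which was so for 6.6% of 10962 genes. The fit gave 1.46-fold (log2 0.55 ± 0.12 SE, adjusted p = 0.0384), and the single log2 ratios were 0.35 and 1.02 in male and female prefrontal cortex, 0.31 and 0.13 in male and female hippocampus, and 0.72 in hypothalamus. The hippocampal counts were 66 to 117, and their 95% intervals included 0. With DESeq2 the adjusted p was 0.1, and without the female prefrontal, male hippocampal or hypothalamic pair it was 0.176, 0.0828 or 0.0782.

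Klf2 (ENSMUSG00000055148; chromosome 8, 72319033 to 72321656, plus strand), the related flow-induced factor, was at 26.2 CPM in male LP and 23.9 CPM in female LP prefrontal cortex, against 31.7 CPM in male NP and 8.64 CPM in female NP. The male and female prefrontal pairs thus went opposite ways, at log2 ratios of -0.27 and 1.44. The male hippocampal pair had 10.6 CPM in LP and 10.0 CPM in NP, and the hypothalamic pair 15.1 CPM in LP and 11.1 CPM in NP. Klf2 did not pass over the pairs (log2 0.31 ± 0.20, adjusted p = 0.514). Immediate early genes, a list of 20 activity-induced genes, were higher in LP for 13 of 20 (10 of 20 with DESeq2; median log2 0.60), and their summed level over the 15 measured everywhere was 767.8 to 6397 CPM in LP and 612.6 to 5437 CPM in NP. In female prefrontal cortex, where Klf2 and Klf4 had their largest ratios, that sum was 5438 CPM in LP and 2905 CPM in NP. The list's median log2 ratio was 0.32 and 0.95 in male and female prefrontal cortex, and 0.65 and 0.61 in male and female hippocampus. It was lowest in hypothalamus, at 0.25, where the Klf4 ratio was 0.72. The part of these genes in the Klf values was not tested.

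The remaining 7 members did not pass over the pairs. Their log2 fold changes were -0.11 ± 0.08 for Cldn5, 0.16 ± 0.11 for Flt1, 0.11 ± 0.11 for Kdr, 0.00 ± 0.16 for Tek, 0.14 ± 0.12 for Pecam1, 0.23 ± 0.17 for Abcb1a and -0.03 ± 0.12 for Slco1a4, with adjusted p from 0.576 (Flt1) to 0.997 (Tek). Red blood cell genes fell in LP for 5 of 5 (median log2 -0.61). The summed level of the 2 measured everywhere was 269.3 to 1004 CPM in LP and 346.6 to 1494 CPM in NP. Oligodendrocyte genes were negative for 8 of 8 (median -0.34), with 1 called, Opalin (-0.49). Smooth muscle genes were positive for 6 of 6 (0.76), with 0 called by edgeR or DESeq2 and 5 at an unadjusted p under 0.05. Meningeal fibroblast genes were positive for 8 of 8 (0.50), with 1 called by edgeR, Ogn (0.80). By pair, the smooth muscle median was 1.68 in hypothalamus and -0.15 to 0.08 in the other pairs. The meningeal median was -0.48 and 0.30 in male and female prefrontal cortex. It was 0.52 and -0.06 in male and female hippocampus and 0.98 in hypothalamus. Oligodendrocyte genes were positive for 7 of 8 in the male hippocampal pair. Choroid plexus genes were positive for 7 of 7 tested (median 0.215), with 1 called by edgeR, Ttr (1.36), and 0 by DESeq2. The 4 measured everywhere summed to 324.5 and 291.8 CPM in male and female LP hippocampus. In male and female NP hippocampus they summed to 167.1 and 70.8 CPM. The sums were 47.8 CPM in LP and 48.1 CPM in NP hypothalamus, and at most 3.025 CPM in prefrontal cortex. The part of these cell types in the endothelial values was not tested.

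**Figure D2:**
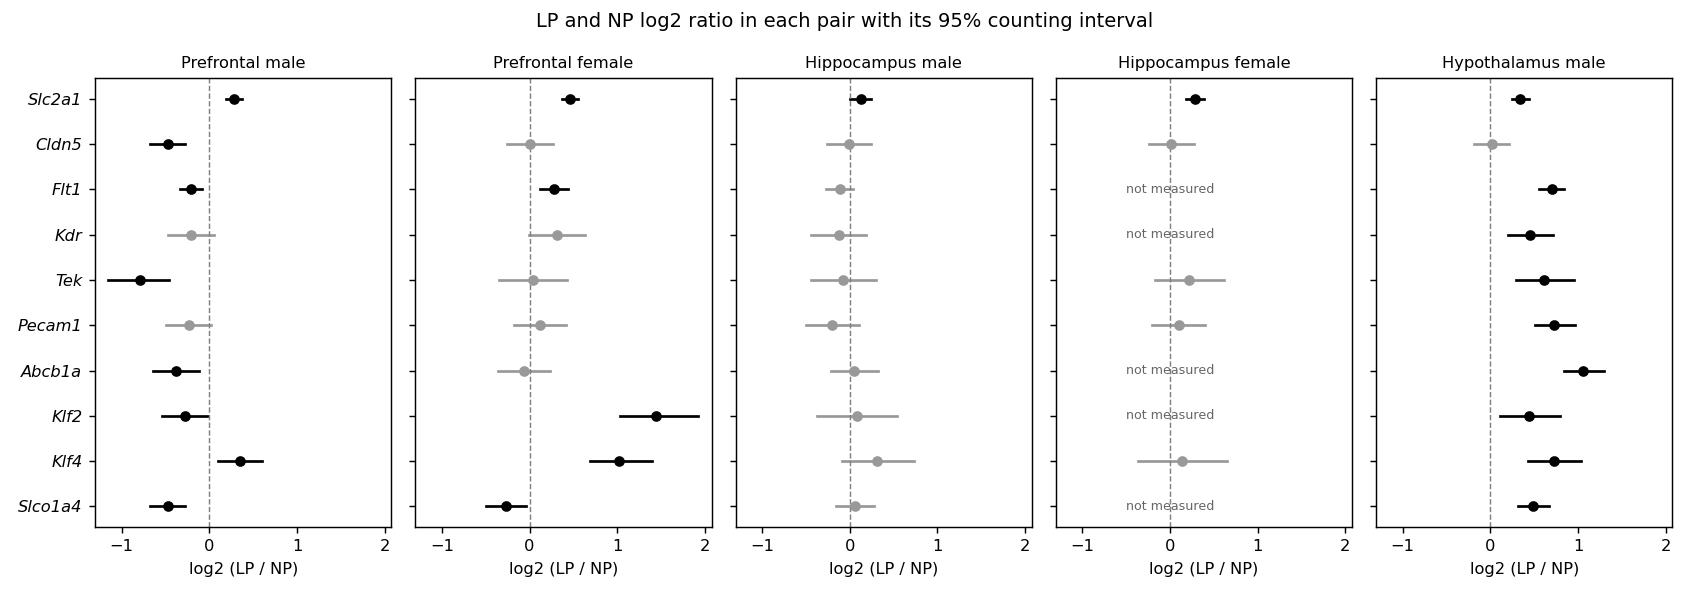
Log2 ratio of LP over NP for each gene (rows) in each of the 5 pairs (panels), with 95% counting intervals; black marks intervals that exclude 0. In the hypothalamic panel 9 of 10 intervals lie above 0, in the male prefrontal panel 6 lie below and 2 above it, and in both hippocampal panels the interval of Slc2a1 alone excludes 0.

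The single hypothalamic pair differed from the rest. All 10 members were higher in the LP hypothalamus than in the NP hypothalamus, and 9 of 10 intervals lay above 0, against 16.6% of 16803 genes with an interval above 0. This is a comparison of 1 library with 1 other and has no replicate check. The sample code in the title of the LP hypothalamus also differs from all other codes in its second part. The labels do not explain the code, and whatever it marks cannot be told apart from diet in this pair. The regional marker Hcrt also differed between these 2 libraries, at 26.4 and 125.6 CPM. Whether both held the same parts of the hypothalamus was not tested. Abcb1a (ENSMUSG00000040584; chromosome 5, 8660077 to 8748575, plus strand) encodes the P-glycoprotein drug efflux pump and had 43.2 CPM in LP against 20.6 CPM in NP, on 474 and 250 counts (log2 ratio 1.06, 95% interval 0.84 to 1.29). Pecam1 (ENSMUSG00000020717; chromosome 11, 106654217 to 106750628, minus strand), the endothelial adhesion gene that encodes CD31, had 36.2 CPM in LP against 21.8 CPM in NP (0.73, 0.50 to 0.96). These were the highest LP values of both genes in any region, and the NP values were the lowest NP values of both. Flt1 (ENSMUSG00000029648; chromosome 5, 147561604 to 147726011, minus strand), which encodes VEGF receptor 1, had 90.8 CPM in LP against 55.8 CPM in NP (0.70, 0.56 to 0.84). The angiopoietin receptor gene Tek (ENSMUSG00000006386; chromosome 4, 94739289 to 94874976, plus strand) had 17.04 CPM in LP against 11.1 CPM in NP (0.61, 0.30 to 0.96). The LP values of Flt1 and Tek lay within the range of the other regions, and their NP values were the lowest NP values of each gene. Kdr and Slco1a4, given next, also had their lowest NP value in the NP hypothalamus.

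The organic anion transporter gene Slco1a4 (ENSMUSG00000030237; chromosome 6, 141805440 to 141856199, minus strand) had 53.0 CPM in the LP hypothalamus against 37.7 CPM in NP (0.49, 0.31 to 0.67). Kdr (ENSMUSG00000062960; chromosome 5, 75932827 to 75978458, minus strand), which encodes VEGF receptor 2, had 25.5 CPM in LP against 18.6 CPM in NP (0.45, 0.20 to 0.72). Cldn5 (ENSMUSG00000041378; chromosome 16, 18776847 to 18778262, plus strand), the main claudin of brain tight junctions, was the exception at 35.9 CPM in LP and 35.6 CPM in NP (0.01, -0.19 to 0.21). Other vessel genes moved in the same pair. Endothelial identity genes were positive for 22 of 25 (median 0.62), pericyte genes for 11 of 11 (0.47), smooth muscle genes for 6 of 6 (1.68) and meningeal fibroblast genes for 8 of 8 (0.98). Smooth muscle genes summed to 236.3 CPM in LP and 85.3 CPM in NP, pericyte genes to 587.1 CPM in LP and 334.8 CPM in NP, and meningeal genes to 443.1 CPM in LP and 210.6 CPM in NP, over the genes measured everywhere. Astrocyte (median 0.03) and microglia (0.07) genes lay near 0, and oligodendrocyte genes were negative for 8 of 8 (-0.45). Red blood cell genes went the other way from the vessel genes, with 0 of 5 positive (-0.55). The part of these cell types in the members' ratios was not tested.

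**Figure D3:**
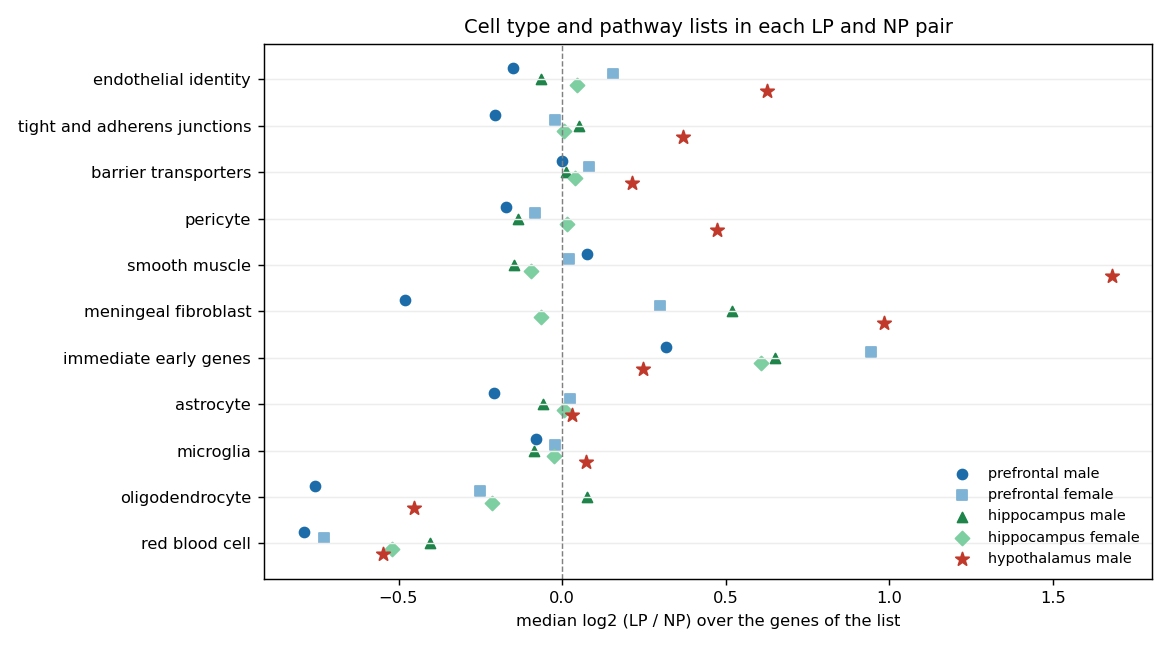
Median log2 ratio of LP over NP across the genes of each list (rows) in each of the 5 pairs (symbols). Hypothalamic medians (stars) are 0.62 for endothelial identity, 1.68 for smooth muscle and 0.98 for meningeal fibroblast genes, against 0.03 for astrocyte genes.

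When each ratio was set against the median of the 25 endothelial identity genes in the same pair, an alternative chosen after seeing the data, Slc2a1 lay above its list in prefrontal cortex (0.43 in males, 0.30 in females) and hippocampus (0.19 in males, 0.24 in females), and below it in hypothalamus (-0.28). Klf4 stayed positive in 5 of 5 pairs, from 0.09 to 0.87. Cldn5 was at -0.61 and Abcb1a at 0.43 in hypothalamus.

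The male prefrontal pair went the other way for most members. Cldn5, Flt1, Tek, Abcb1a, Klf2 and Slco1a4 had intervals below 0 (13.5% of 16790 genes), and Slc2a1 and Klf4 had intervals above 0 (13.1%). Tek was at 13.1 CPM in LP against 22.8 CPM in NP (log2 ratio -0.79), Cldn5 at 42.4 CPM in LP against 59.1 CPM in NP (-0.48) and Slco1a4 at 41.6 CPM in LP against 57.8 CPM in NP (-0.47). Endothelial identity genes had a median of -0.15 in that pair, with 8 of 25 positive. In the female prefrontal pair Slc2a1, Flt1, Klf2 and Klf4 had intervals above 0 (8.9% of 16782 genes) and Slco1a4 below 0 (43.1 CPM in LP, 51.9 CPM in NP; 7.13% of genes). In the hippocampal pairs only Slc2a1 had an interval apart from 0, above it in both (8.13% of genes in the male and 6.91% in the female pair).

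Within prefrontal cortex, tested over the male and female pairs for the 5 members measured everywhere, Slc2a1 (1.29-fold, log2 0.37 ± 0.07, adjusted p = 0.00834) and Klf4 (1.53-fold, 0.61 ± 0.14, adjusted p = 0.0435) rose in LP, against 1.76% of 11749 genes called and 0.987% called higher. In the same comparison oligodendrocyte genes were lower in LP for 5 of 5 tested (median log2 -0.52), red blood cell genes lower for 2 of 2 (-0.78) and immediate early genes higher for 9 of 15 (0.59). Their part in the members' values was not tested. Cldn5 (-0.28 ± 0.11, adjusted p = 0.285), Tek (-0.42 ± 0.18, adjusted p = 0.305) and Pecam1 (-0.07 ± 0.12) did not pass. DESeq2 called neither gene (Slc2a1 adjusted p = 0.417), and without a low-count filter the adjusted p were 0.138 for Slc2a1 and 0.278 for Klf4. Without the female pair they were 0.12 and 0.31. In hippocampus 0 of 5 passed with edgeR (0.323% of genes called) or with DESeq2, and 1 had an unadjusted p under 0.05, namely Slc2a1 (1.15-fold, 0.21 ± 0.07, adjusted p = 0.523).

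Whether the diet difference itself varied was tested for the same 5 members. Hippocampus minus prefrontal cortex gave 0 called by edgeR and by DESeq2, among members and among all 11749 genes (0% called by edgeR). With edgeR 0 members and 636 genes had an unadjusted p under 0.05. Females minus males gave 0 of 5 members by edgeR and by DESeq2, against 0.191% of 10973 genes by edgeR. The 1 member with an unadjusted p under 0.05 was Tek (0.59 ± 0.24, adjusted p = 0.684). Its value was 0.93 without the male hippocampal pair, which leaves 1 male pair. Hypothalamus minus prefrontal cortex, added after the pairs were seen, called 0 members by edgeR and by DESeq2 (0.596% of genes by edgeR), and 2 had an unadjusted p under 0.05. Of these, Pecam1 stood at 0.80 ± 0.20 (adjusted p = 0.0906) and Tek at 1.04 ± 0.29 (adjusted p = 0.134). Without the female prefrontal pair Pecam1 stood at 0.97 and Tek at 1.42. Few libraries are left in fits without 1 pair, so no call is drawn from them. Hypothalamus minus hippocampus, added likewise, called 0 members by edgeR and by DESeq2 (0.315% of genes by edgeR). The 1 member with an unadjusted p under 0.05 was Pecam1, at 0.78 ± 0.21 (adjusted p = 0.153) and at 0.93 without the female hippocampal pair. The diet difference of Slc2a1 in hypothalamus minus that in prefrontal cortex was -0.03 ± 0.11. The hypothalamic side of both tests rests on 1 pair, so their SE and p hold no spread between hypothalamic pairs. These fits had 2 residual degrees of freedom. These tests do not show that the diet difference was the same across regions or sexes.

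The second comparison was between regions. Most members were highest in prefrontal cortex. Slc2a1, Cldn5, Flt1, Kdr, Klf2 and Klf4 were lower in hippocampus than in prefrontal cortex and lower in hypothalamus than in prefrontal cortex. Regions differed widely in all genes: 54% of 17418 were called in hippocampus minus prefrontal cortex (26.6% lower) and 64.2% in hypothalamus minus prefrontal cortex (29.3% lower). The share of members called, 6 of 10 in each, was thus near the background, while all 6 were lower. Both tests used the same prefrontal libraries. The members' median log2 fold changes were -0.36 and -0.38, against -0.01 and 0.05 over all genes.

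Klf4 and Klf2 had the largest regional differences. Klf4 averaged 10.8 ± 2.34 CPM in hippocampus (n = 4) and 28.01 ± 9.35 CPM in prefrontal cortex (SD, n = 4), and the hippocampal level was 0.388 of the prefrontal one (log2 -1.37 ± 0.13 SE, adjusted p = 6.99e-07). All 4 hippocampal libraries, at 8.62 to 13.9 CPM, lay below the 4 prefrontal ones, at 14.98 to 37.2 CPM. In hypothalamus it was at 12.7 and 21.1 CPM (-0.97 ± 0.14 against prefrontal cortex, adjusted p = 4.00e-05). Klf2 was at 10.0 to 10.6 CPM in the 3 hippocampal libraries with a value and at 8.64 to 31.7 CPM in the prefrontal ones (-1.27 ± 0.23, adjusted p = 0.000173), so the ranges overlapped through female NP prefrontal cortex. Its hypothalamic values were 11.1 and 15.1 CPM (-1.08 ± 0.24, adjusted p = 0.000828). Immediate early genes were lower for 16 and higher for 3 of 20 in hippocampus minus prefrontal cortex (median log2 -1.61). They were lower for 18 of 20 in hypothalamus minus prefrontal cortex (-2.68). In hypothalamus minus hippocampus they were lower for 15 and higher for 1 of 20 (-1.38). Klf4 (0.40) and Klf2 (0.19) were positive there and did not pass. The part of immediate early genes in the regional Klf values was not tested.

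Slc2a1 averaged 168.5 ± 31.4 CPM in hippocampus and 260.3 ± 50.1 CPM in prefrontal cortex (SD, n = 4 each; log2 -0.63 ± 0.05 SE, adjusted p = 2.43e-07). The hypothalamic libraries had 139.0 and 176.3 CPM (-0.55 ± 0.07 against prefrontal cortex, adjusted p = 8.86e-06). For Slc2a1 and Cldn5 every prefrontal library was above every other library, which held for 14.5% of 16813 genes, although by little: the lowest prefrontal value of Slc2a1 was 212.8 CPM and the highest elsewhere 210.6 CPM, and for Cldn5 these were 36.3 and 35.9 CPM. Cldn5 was nearly level in hippocampus (33.1 ± 0.407 CPM, n = 4) and hypothalamus (35.6 and 35.9 CPM), against 43.6 ± 10.8 CPM in prefrontal cortex (hippocampus -0.39 ± 0.11, adjusted p = 0.00679; hypothalamus -0.41 ± 0.13, adjusted p = 0.0127). Without male NP prefrontal cortex the hypothalamic difference was -0.17 (adjusted p = 0.148), and without the NP hypothalamic library it did not pass (-0.33, adjusted p = 0.113). Without sex and diet in the model it was -0.30 (adjusted p = 0.0946).

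Of the receptors, Flt1 was lower in hippocampus (-0.33 ± 0.12, adjusted p = 0.0272) and hypothalamus (-0.65 ± 0.14, adjusted p = 0.000646) than in prefrontal cortex, at 84.9 to 92.0, 55.8 to 90.8 and 89.3 to 124.8 CPM in hippocampus, hypothalamus and prefrontal cortex. Kdr was at 20 to 21.8, 18.6 to 25.5 and 22.5 to 30.4 CPM in the same order (hippocampus -0.38 ± 0.12, adjusted p = 0.0162; hypothalamus -0.34 ± 0.14, adjusted p = 0.038). Apart from the hypothalamic call of Flt1, these calls changed with the settings. Kdr lost its hypothalamic call with DESeq2 (adjusted p = 0.113), without a low-count filter, without sex and diet in the model, and without any 1 of 4 libraries: male NP prefrontal cortex (-0.18), female LP prefrontal cortex (-0.33), male NP hippocampus (-0.33) or NP hypothalamus (-0.12). Its hippocampal call was lost with DESeq2 and without male NP prefrontal cortex or male LP hippocampus (-0.27 and -0.29). Flt1 lost its hippocampal call with DESeq2 (adjusted p = 0.193), without a low-count filter, without sex and diet in the model, and without male NP prefrontal cortex (-0.20), female LP prefrontal cortex (-0.32), male LP hippocampus (-0.23) or female LP hippocampus (-0.40).

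Tek, Pecam1, Abcb1a and Slco1a4 did not pass between any 2 regions with all libraries. Against prefrontal cortex, Tek passed without male LP prefrontal cortex (hippocampus -0.42, hypothalamus -0.65), and Pecam1 was lower in hippocampus without that library (-0.41) or without either hypothalamic library (-0.33, adjusted p = 0.00529 without LP and 0.00521 without NP). Abcb1a averaged 29.8 ± 3.05 CPM in hippocampus (n = 3) and 28.6 ± 3.22 CPM in prefrontal cortex (SD, n = 4), and Slco1a4 45.5 ± 2.71 CPM in hippocampus and 48.6 ± 7.6 CPM in prefrontal cortex. Hypothalamus minus hippocampus called 0 of 10 members by edgeR and by DESeq2, against 60.7% of genes by edgeR. The 2 members nearest the threshold were Klf4 (0.40 ± 0.17, adjusted p = 0.0515) and Flt1 (-0.33 ± 0.14, adjusted p = 0.0564), and these were the 2 with an unadjusted p under 0.05. Klf4 passed without male NP prefrontal cortex (0.43), female NP prefrontal cortex (0.46) or female NP hippocampus (0.45), and Flt1 without male LP prefrontal cortex (-0.36) or male LP hippocampus (-0.46). The hypothalamic values depended on which library was used. Without the LP hypothalamus, 10 of 10 members passed and were lower in hypothalamus than in prefrontal cortex, Abcb1a among them at -0.47 (adjusted p = 0.00988) and Pecam1 at -0.45 (adjusted p = 0.0145). Without the NP hypothalamus, Abcb1a was higher in hypothalamus than in prefrontal cortex by 0.69 (adjusted p = 0.000218) and Pecam1 by 0.34 (adjusted p = 0.0364). Against hippocampus, 3 members passed without the LP library (Flt1 -0.71, Abcb1a -0.56, Slco1a4 -0.38, all lower) and 4 without the NP library (Abcb1a 0.60, Pecam1 0.68, Klf4 0.50, Slco1a4 0.31, all higher).

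**Figure D4:**
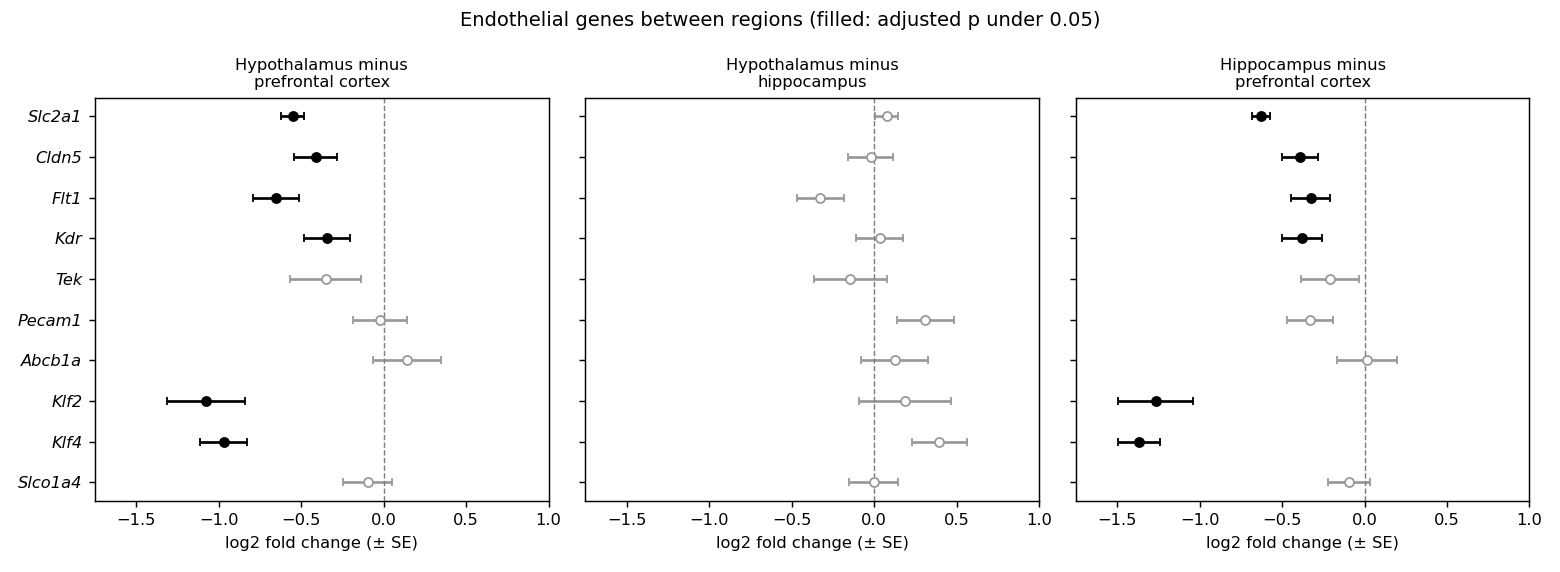
Log2 fold changes between regions (± SE) from edgeR for the 10 genes, filled where the adjusted p was under 0.05. Against prefrontal cortex 6 genes lie below 0 in both panels, with Klf4 at -1.37 in hippocampus, while 0 genes are filled for hypothalamus minus hippocampus.

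In hippocampus minus prefrontal cortex, 0 of 25 endothelial identity genes were higher and 11 did not pass (median log2 -0.41). The other 14 were lower, against 26.6% of 17418 genes. Among them were Cd34 (-1.68 ± 0.07), also made by other brain cells, the secreted vessel factor gene Egfl7 (-0.74 ± 0.08) and Ly6c1 (-0.69 ± 0.08). In hypothalamus minus prefrontal cortex 11 of the 25 were lower (29.3% of all genes) and 3 higher. The higher ones were Clec14a (1.09), Vwf (0.70) and Itm2a (0.58). Between hypothalamus and hippocampus 5 were higher and 2 lower, where 60.7% of all genes were called in either direction. The adherens junction gene Cdh5 was higher in hypothalamus (0.77). Of 11 pericyte genes, 3 were lower, 0 higher and 8 not passed in hippocampus minus prefrontal cortex, a share lower that was near the background. Of 6 smooth muscle genes, 1 was higher and 0 were lower there (median log2 0.08). Markers of other cells differed as well between hippocampus and prefrontal cortex. In hippocampus oligodendrocyte genes were higher for 8 of 8, choroid plexus genes higher for 7 of 7 tested and red blood cell genes lower for 5 of 5. Smooth muscle genes were higher for 6 of 6 and meningeal genes for 8 of 8 in hypothalamus against prefrontal cortex, where microglia genes were lower for 8 of 8 and neuron genes for 5 of 6. The part of these differences in tissue make-up in the endothelial values was not tested.

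For diet, 0 of 20 tested genes of the VEGF and angiopoietin list passed with edgeR or DESeq2, and 4 had an unadjusted p under 0.05 (median log2 0.08). Between regions, Vegfa, the ligand of FLT1 and KDR, was lower in hippocampus (84.5 ± 1.57 CPM) than in prefrontal cortex (118.8 ± 10.1 CPM; SD, n = 4 each; log2 -0.49 ± 0.06, adjusted p = 5.17e-06) and lower in hypothalamus than in prefrontal cortex (-0.44 ± 0.07, adjusted p = 0.000103). Vegfb, a FLT1 ligand, was lower in hippocampus than in prefrontal cortex (-0.60 ± 0.07). Pgf, another FLT1 ligand, was higher in hypothalamus than in prefrontal cortex, at 14.5 and 15.3 CPM against 2.98 to 5.76 CPM (1.83 ± 0.18). The TEK ligand genes Angpt1 (1.82 ± 0.21) and Angpt2 (1.82 ± 0.31) were higher in hypothalamus than in prefrontal cortex, the second on levels of 3.22 and 6.1 CPM. The VEGF co-receptor genes Nrp1 and Nrp2, which neurons also express, were higher in hippocampus than in prefrontal cortex (2.02 ± 0.09 and 1.61 ± 0.09). Pgf was also higher in hippocampus than in prefrontal cortex (0.70 ± 0.17, adjusted p = 0.00311). Of the 20 genes of this list, 5 were higher and 9 lower in hippocampus minus prefrontal cortex, and 8 were higher and 7 lower in hypothalamus minus prefrontal cortex.

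Barrier-related lists had few diet calls. With edgeR, 0 of 17 other barrier transporters passed (14 positive, 6 at an unadjusted p under 0.05, median log2 0.13). Of 11 junction genes 0 passed (2 unadjusted, median 0.07), and of 18 genes of the Wnt pathway that maintains the barrier 0 passed (2 unadjusted, median 0.08). DESeq2 called 0 in each of these lists and in the next 2. Of the 9 other facilitative glucose transporters 0 passed (3 unadjusted, median 0.04), among them Slc2a3, which encodes the neuronal glucose transporter (0.20 ± 0.06, adjusted p = 0.106). Of 19 hypoxia and glycolysis genes 0 passed (1 unadjusted, median 0.03). The list of KLF2 and KLF4 targets and relatives had 1 of 14 higher, the tissue plasminogen activator gene Plat (1.31-fold, 0.39 ± 0.07, adjusted p = 0.0192). All 14 were positive (6 unadjusted, median 0.12). Most of the 14 are KLF relatives and not targets, so the shared sign does not read out KLF activity. The thrombomodulin gene Thbd (0.56 ± 0.25, adjusted p = 0.346) and the endothelial nitric oxide synthase gene Nos3 (0.08 ± 0.13, adjusted p = 0.853) did not pass. Nor did the endothelin gene Edn1, which had the largest value of the list (0.67 ± 0.19, adjusted p = 0.112).

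Between regions, the transporter list was lower for 7 and higher for 2 of 17 in hippocampus minus prefrontal cortex, with Slco1c1, the thyroxine transporter gene, at -0.62 ± 0.07 and Slc3a2, a subunit of amino acid transporters, at -0.41 ± 0.04. In hypothalamus minus prefrontal cortex it was lower for 6 and higher for 1, with Slco1c1 at -1.40 ± 0.08. The barrier-inducing ligand gene Wnt7b was lower in hippocampus (-0.98 ± 0.07) and hypothalamus (-1.57 ± 0.10) than in prefrontal cortex, while Wnt7a did not pass (-0.03 and -0.05). The junction list was mixed, at 2 higher and 4 lower of 11 in hippocampus minus prefrontal cortex, and the cingulin gene Cgn was lower in hippocampus (-1.07 ± 0.15) and higher in hypothalamus (1.38 ± 0.14) than in prefrontal cortex. Of 4 genes listed for fenestrated endothelium, which lacks a barrier, 3 were lower in hippocampus than in prefrontal cortex. Plvap, the diaphragm gene, was among them (-0.61). In hypothalamus minus prefrontal cortex Esm1 was higher (2.37), Ramp3 (-2.39) and Plpp3 (-0.51) were lower, and Plvap did not pass (-0.22). In hippocampus the 3 listed genes measured everywhere summed to 393.8 to 423.9 CPM. That was above the 291 to 322.2 CPM of 17 endothelial identity genes there. Which cells made the listed genes was not tested, so this sum is not a measure of fenestrated endothelium.

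Sex was compared within region and diet in prefrontal cortex and hippocampus. Slc2a1 was higher in females, at 1.26-fold (log2 0.33 ± 0.05 SE, adjusted p = 0.00737), and was the 1 member of 10 called, against 0.341% of 16716 genes higher and 0.622% in either direction. Females were higher in 4 of 4 comparisons. Prefrontal cortex had 330.0 CPM in female LP against 258.5 CPM in male LP, and 240.1 CPM in female NP against 212.8 CPM in male NP. Hippocampus had 210.6 CPM in female LP against 151.4 CPM in male LP, and 172.9 CPM in female NP against 139.1 CPM in male NP. The adjusted p ranged from 0.00166 to 0.0427 over the alternatives. The 25 endothelial identity genes had 0 called by edgeR and by DESeq2, 4 at an unadjusted p under 0.05 and a median of -0.00.

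Klf4 was lower in females in 4 of 4 comparisons, with log2 ratios of -0.27 and -0.95 in LP and NP prefrontal cortex and -0.54 and -0.36 in LP and NP hippocampus, and did not pass (-0.53 ± 0.12, adjusted p = 0.0814). Klf2 (-0.66 ± 0.18, adjusted p = 0.0885) rested on NP prefrontal cortex, with 8.64 CPM in the female and 31.7 CPM in the male library. Klf2 was at -1.08 without the LP prefrontal sex pair, at -0.85 without the LP hippocampal one and at -0.09 without the NP prefrontal one. Few libraries with a Klf2 value were left in these fits, so no call is drawn from them. Of the 20 immediate early genes, 14 were lower in females (7 with DESeq2; median -0.55). The part of these in the Klf values was not tested. Cldn5 (-0.26 ± 0.10, adjusted p = 0.434) and the other 6 members did not pass, with log2 fold changes from -0.13 (Flt1) to 0.05 (Abcb1a).

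**Figure D5:**
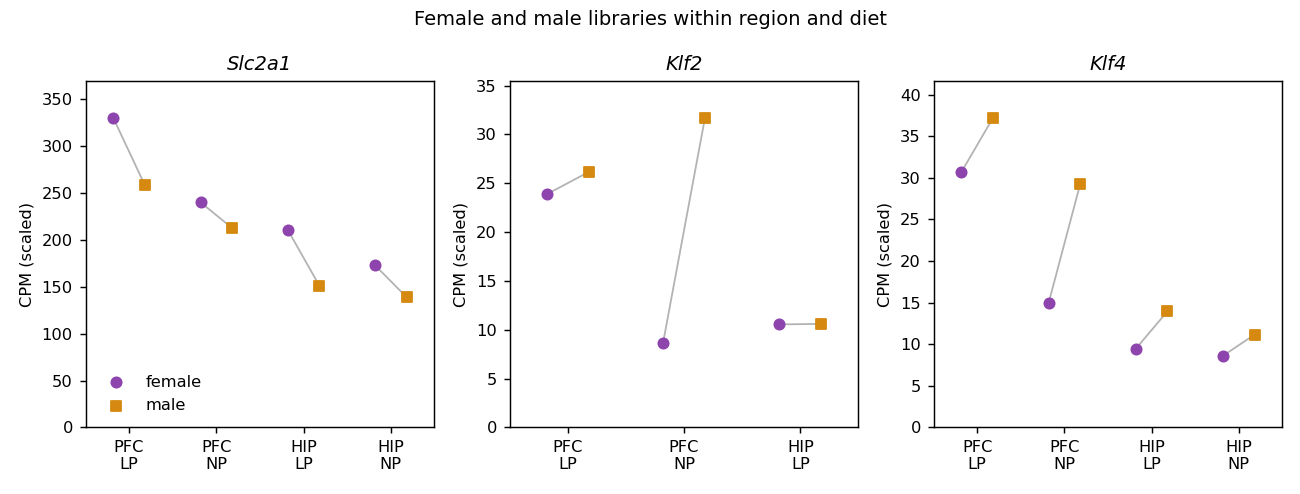
Scaled CPM of Slc2a1, Klf2 and Klf4 in the female (circles) and male (squares) library of each region and diet. The female library is higher for Slc2a1 in 4 of 4 comparisons and lower for Klf4 in 4 of 4, and the Klf2 gap is widest in NP prefrontal cortex, at 8.64 CPM in the female and 31.7 CPM in the male library.

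For each member the genes with the most similar profile were found by the root mean square distance between log2 CPM profiles centred on their means, among genes with a mean of at least 5 CPM, as a description with no test. Several neighbours of the structural and receptor genes were known endothelial genes. Pecam1 was nearest to Tie1, the orphan partner receptor of TEK (distance 0.0806 over 10 libraries and 8746 genes), then Lgals9 and Itgb5. Slco1a4 was nearest to Cyyr1 (0.0847) and Adgrf5 (0.0857 over 9 libraries and 13343 genes), then Dock2, and Abcb1a to the caveolin gene Cav1 (0.129), Adgrf5 and Ctsc. Kdr had Nsun6 (0.0999), Nos3 (0.102) and Epb41l2, and Flt1 had the chemokine gene Cxcl12 (0.0983), Rhobtb1 and Znrf3. Klf2 was nearest to Klf4 (0.283), then Ovca2 and Gadd45g. Klf4 had Stac3 (0.282), Sik1 (0.298) and Phlda1. Distances were wider for the Klf genes, whose own profiles varied most (SD 0.69 and 0.74 for Klf2 and Klf4, against 0.20 to 0.41 for the others). Slc2a1 had Map2k3 (0.171), Arhgap31 and Ccdc85c, Cldn5 had Gm13552 (0.0869), Ctss and Ankrd16, and Tek had Tmem245 (0.143), Man2a1 and Aox1.

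Some members have close copies, and how reads that fit several genes were counted is not given in the sources used here. Abcb1a is 87.7% identical to its neighbour Abcb1b over 4000 transcript bases, and Abcb1b averaged 4.78 ± 0.459 CPM in hypothalamus (SD, n = 2). Slco1a4 is 89.1% identical to Slco1a5 over 2150 bases, and Klf4 is 91.3% identical to Gm48640 over 242 bases. The antisense Gm42686 overlaps 553 bases of Abcb1a and had 0 to 6 counts. Values of these members are uncertain to that extent.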

How the data were processed

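RNA was sequenced from 10 brain libraries (TruSeq, 1 µg of total RNA, per the labels). Per the submitters' processing notes, CASAVA, FastQC (0.10.1) and STAR (2.5.0a) were used with build mm10. The table of the authors holds unnormalized read counts for each Ensembl gene. Which tool counted the reads, with which strand setting and annotation, was not given in the sources used here. No column of per-sample values was left unused. Of 47729 genes, 47310 were matched to GENCODE M21 (GRCm38).

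The female NP hippocampus library held almost no counts for 19598 genes, which were treated as not measured there. Diet was fitted for these with 8 libraries (without the female hippocampus pair), region with 9 and sex with 6. CPM used TMM sizes from the other 28131 genes, and single ratios a prior count of 2 with exact 95% conditional binomial intervals of the LP to NP ratio. Genes were kept by filterByExpr (minimum count 10) and tested with edgeR 4.0.16 in R 4.3.3 (quasi-likelihood F test, Benjamini-Hochberg at 0.05 over all genes tested). Diet was fitted within 5 strata of region and sex, region with sex and diet as terms, and sex within region and diet. Diet over the pairs had 4 residual degrees of freedom for genes measured everywhere. The fits were checked on simulated counts with the same spread for every gene, so this check does not cover the spread between these libraries. Alternatives were DESeq2 1.42.0, its size factors, no filter, edgeR's earlier method, a region model without covariates, a prior count of 0.5 and leaving out pairs or libraries. Chosen after seeing the data were the differences between the hypothalamic diet ratio and those of the other regions, and ratios set against the endothelial identity median.

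The 10 members and the gene lists were chosen with earlier results of these data known. All members are described. From each list the text draws on up to 3 called genes with the smallest p for each comparison, and on ligands and receptors of members. Slc2a3, Thbd, Nos3, Edn1, Wnt7a, Clec14a, Vwf, Itm2a, Cdh5, Abcb1b and the regional markers Prox1 and Hcrt fall outside that rule. They were chosen after their values were seen. Nearest genes are the 3 at the smallest distance.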

Additional observations from a re-analysis of the deposited data

Results flagged for a closer look

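Some members had diet ratios that went opposite ways in 2 groups, and none of these differences was tested, since differences between diet ratios were fitted on genes measured in all libraries only. Flt1 and Kdr were higher in LP in the female prefrontal pair, which is the 1 female pair with a value, and lower in LP in both male pairs of prefrontal cortex and hippocampus. The female ratio minus the mean of these 2 male ratios was 0.442 for Flt1 and 0.474 for Kdr on the log2 scale. The male hypothalamic pair, which has no female counterpart and was left out of this value, went the other way, at 0.70 for Flt1 and 0.45 for Kdr. Abcb1a was lower in LP in both prefrontal pairs and higher in the 1 hippocampal and the 1 hypothalamic pair with a value, by 0.272 for hippocampus minus prefrontal cortex and 1.28 for hypothalamus minus prefrontal cortex. Slco1a4 did the same, by 0.426 and 0.858. One side of each of these contrasts rests on 1 pair.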

How the results depend on the processing

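Of 875 alternative values of members' log2 fold changes, 809 kept their side of the threshold without a called change of direction. Another 32 lost their call, 30 gained one and 4 turned round with a call. Over all 875, 61 changed sign, most of them with no call in either fit and counted among the 809. Of 45 single ratios all 45 were alike with a prior count of 0.5. The 4 that turned round came from leaving out 1 hypothalamic library, LP for the lower and NP for the higher end of each range. In hypothalamus minus prefrontal cortex, Abcb1a ranged from -0.47 to 0.69 and Pecam1 from -0.45 to 0.34, and in hypothalamus minus hippocampus Abcb1a ranged from -0.56 to 0.60 and Slco1a4 from -0.38 to 0.31. Less the endothelial identity median, 6 hypothalamic ratios became negative: Cldn5 -0.61, Slc2a1 -0.28, Kdr -0.17, Tek -0.011, Klf2 -0.18 and Slco1a4 -0.14.

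With DESeq2, called genes numbered 126 for diet over the pairs (1 member), 13 in prefrontal cortex (0 members), 11 in hippocampus, 12 for females minus males in diet, 34 for sex, and 5 each for hypothalamus minus prefrontal cortex and hypothalamus minus hippocampus in diet. Without a low-count filter they numbered 25 in prefrontal cortex (0 members), 5 in hippocampus, 0 for females minus males in diet, 26 for sex, 1 for hypothalamus minus prefrontal cortex and 3 for hypothalamus minus hippocampus in diet. With DESeq2's size factors 1 member was called in prefrontal cortex and 1 in hypothalamus minus hippocampus, and edgeR's earlier method called 1 gene for hippocampus minus prefrontal cortex in diet. The cause of these differences was not tested.

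Leaving out 1 pair or library, called genes ranged from 94 to 291 for diet over the pairs, 60 to 499 in prefrontal cortex, 36 to 88 in hippocampus, 0 to 38 for hippocampus minus prefrontal cortex, 1 to 216 for females minus males, 26 to 300 for hypothalamus minus prefrontal cortex and 71 to 142 for hypothalamus minus hippocampus in diet. Members called ranged from 0 to 2 over the pairs, 0 to 2 in prefrontal cortex, 0 to 1 for females minus males in diet, 0 to 2 for hypothalamus minus prefrontal cortex and 0 to 1 for hypothalamus minus hippocampus in diet, 4 to 10 and 0 to 4 for hypothalamus minus prefrontal cortex and hypothalamus minus hippocampus in level, and 1 to 2 for sex. Fits without the hypothalamic pair could not be made for the 2 diet contrasts that need it. The diet fits by region or sex, and the sex fit of Klf2, had few libraries left once a pair was out. No call of a member is drawn from those fits. The diet and sex fits already compare libraries within region, and the labels give no replicate numbers for a further block. Depth limits Klf2, Klf4 and Tek most, at 60 to 324 counts.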
